A study of Mus musculus with 5 samples.

Results

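Cebpb, Junb, Cited2, Tcf3, Hdac5, Hmgn1 and 6430527G18Rik (current symbol Irf2bpl) encode regulators of transcription and chromatin, and reads at each were found in the immunoprecipitate of Flag-tagged SAMD4 from mouse osteoblasts. They were chosen by name from the deposited list of enriched intervals, which holds only stretches of the genome with more reads in the immunoprecipitate (IP) than in the IgG control. The 7 genes have 9 of the 673 listed intervals, with 5 genes at 1 interval each and Hmgn1 and Tcf3 at 2 each. Because the list was made by comparing IP with IgG reads, these reads are given below as a description, without a test.

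SAMD4 is the mammalian relative of the Drosophila protein SMAUG, which binds RNA stem-loops called SMAUG recognition elements (SREs) and represses translation of the RNA that carries them. The loop of such an element holds CNGG, with any base at N. In osteoblasts, the bone-forming cells, factors of the C/EBP and AP-1 families, both of the bZIP class, take part in differentiation together with co-regulators and histone deacetylases.

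RNA immunoprecipitation followed by sequencing was done on cell extracts, giving 2 libraries of the anti-Flag IP, 2 of IgG and 1 of input. All came from FVB calvarial osteoblasts of mice at postnatal days 5 to 7 that were homozygous for a piggyBac insertion in Samd4 (Samd4PB/PB), immortalised with SV40 and infected with a Flag-Samd4 lentivirus, so the IgG arm carried the same insertion and the same transgene as the IP arm. The insertion lowers the cells' own Samd4, and the tagged protein came from the virus. Neither the promoter of the lentivirus nor whether the cells were 1 clone was stated in the sources read. For the IgG libraries the antibody entry names Flag with other catalogue numbers, whereas titles and sources name IgG, which was followed. The table gives 1 number of IP reads and 1 number of IgG reads per interval, so the spread between libraries could not be measured. The input was not used here. Summed over all listed intervals there were 3260616 reads in the IP and 567264 in the IgG, and the median interval had 74 and 6. Whole-library depth was not stated in the sources read. The 95% intervals below are Poisson limits for reads and cover counting error only. Of 10 osteoblast markers Col1a1 was listed, and of the markers of cartilage, fat, macrophage, muscle and endothelium 0 were. A gene missing from a list of enriched intervals may still be expressed.

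Short stretches of RNA at the transcription start are shown first, since the listed intervals of Junb, Cited2 and Hmgn1 cover all or most of the first 50 transcribed bases and the CNGG of an SRE could be looked for there. For these genes the RefSeq span in build GRCm38.p6 has the same length as that in the deposited table, which is in build mm9. Each stretch holds 30 transcribed bases, 5′ to 3′, with CNGG in capitals.
Junb, chr8:84978711-84978740, minus strand: cttggggCTGGggccgagcaCTGGggactt
Cited2, chr10:17723234-17723263, plus strand: ttgttggcagctgcCTGGcggtcttgcgga
Hmgn1, chr16:96127692-96127721, minus strand: caccgcccccgcgaCGGGtcgcagcagttc
The CNGG of Hmgn1 was flanked by 4 bases on each side that can pair with each other, in gcgaCGGGtcgc at bases 15 to 26 of the transcript. The search asked for 4 or more paired bases, G-U included, around a loop of CNGG and 0 to 3 further bases, in the first 50 transcribed bases. It was met at 1 of the 7 genes, Hmgn1. At Cebpb, Tcf3, Hdac5 and Irf2bpl the bases searched lie outside the listed intervals, so the search says nothing of the RNA under those. At Junb, Cited2 and Hmgn1 it reached only 50, 44 and 50 bases of intervals of 1902, 226 and 142 bases. Of all 32851 RefSeq start sites 9.01% held such a stem-loop in their first 50 bases, and 68.2% held CNGG on the transcribed strand, which alone was searched. The first 50 bases of these 7 genes had 60% to 80% G and C, against a median of 56% over all start sites. Such a match describes letters only, and folding was not computed.

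Before the genes are taken up by role, their reads can be surveyed together. The IgG had 0 reads in 7 of the 9 intervals, which are those of Cebpb, Hmgn1, Cited2, Tcf3 and Hdac5, whereas the intervals of Junb and Irf2bpl held IgG reads. Over the whole list 14.4% of intervals had 0 IgG reads. The genes were picked with these reads known, so nothing is read from the difference. In the plot of reads by interval, IP reads ran from 15 at Hdac5 to 131 at Junb.

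**Figure D1:**
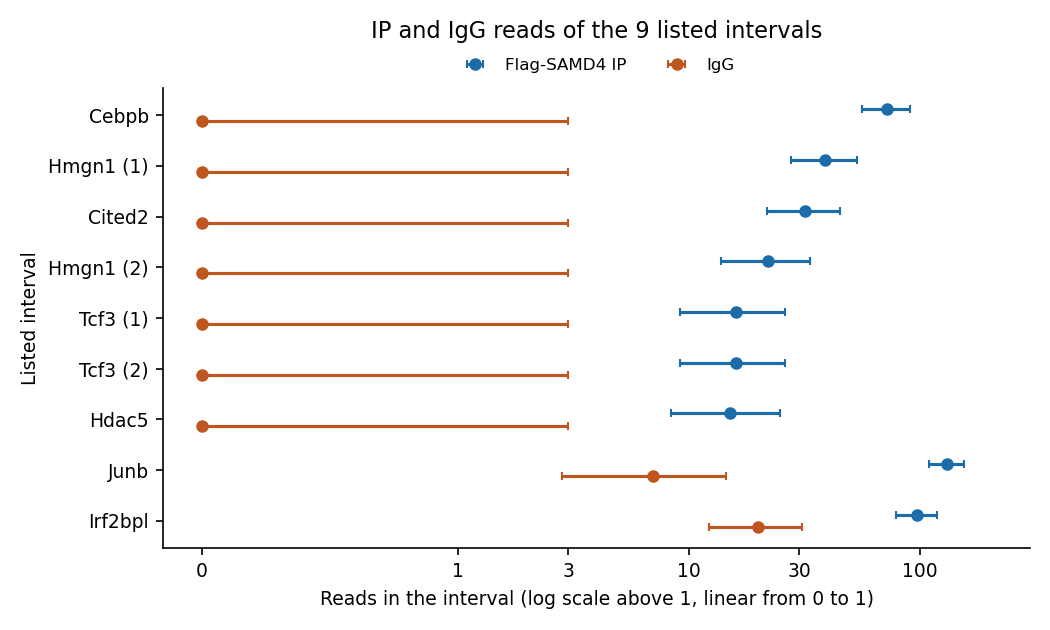
Reads of the 9 listed intervals in the Flag-SAMD4 IP (blue) and the IgG (orange), on an axis that is logarithmic above 1. Bars are 95% Poisson intervals, and where the IgG had 0 reads the bar runs to a floor of 3 reads, below the Poisson limit of 3.69. Hmgn1 (1) is the interval at exon 1 and Hmgn1 (2) the one of 39 bases, Tcf3 (1) and (2) are in the order of the genome. IP and IgG bars stay apart in every interval, in a list made only of intervals with more IP than IgG reads.

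Among the DNA-binding factors, Cebpb had the most IP reads without any IgG read. It encodes C/EBPβ, a bZIP transcription factor of bone and fat cell differentiation, from a gene without introns. The interval held 72 IP reads, with a 95% Poisson interval of 56.3 to 90.7, and no IgG read. The fold is at least 24 against a floor of 3 reads, set for a count of 0, whose upper 95% Poisson limit is 3.69. This bound, like those below, takes the IP reads as counted and makes no correction for depth. If the floor is multiplied by 1.64, the IgG factor that the deposited p-values imply, the fold becomes at least 14.7-fold. Of the 97 intervals with 0 IgG reads, 20 had more IP reads. Of the 77 listed intervals on single-exon RefSeq transcripts, 21 (27.3%) had 0 IgG reads. Among the 22 of them whose names are not those of histone genes, 2 (9.09%) had 0 IgG reads, against 14.4% of all listed intervals. The 2 were Cebpb and Hnrnpa0, an RNA-binding protein named here after its values were seen.

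The interval of Cebpb lay away from the start of the gene. It runs on chromosome 2 of mm9 from 167515094 to 167515436, on the plus strand, and is 343 bases long. In NM_009883 it covers bases 680 to 1022 of 1504, which are the last 319 bases of the coding sequence (codons 191 to 297, the stop codon included) and the first 24 bases of the 3′ UTR. This coding 3′ end holds the bZIP domain and is shared by the long and short forms of C/EBPβ that are made from this mRNA by different start codons. No base of the 5′ UTR was in the interval. A second name, Tmem189, is listed at the same place. That gene, which encodes a membrane enzyme of plasmalogen synthesis, runs on the opposite strand, and 229 bases of the interval lie in exons of 2 non-coding transcripts of it. The table gives no strand for the reads, so reads of Cebpb and of this transcript cannot be told apart. Tmem189 has no other listed interval.

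Junb, which encodes an AP-1 subunit needed for bone formation in mice, had the most IP reads of the 7 genes. Its interval held 131 IP reads (109.5 to 155) against 7 in the IgG (2.81 to 14.4), a ratio of 18.7 (95% interval 8.83 to 47.5). It is also a single-exon gene in RefSeq, and here the interval was as long as the gene. It lies on chromosome 8 from 87500755 to 87502656, 1902 bases on the minus strand, and covers all 1840 bases of NM_008416 with 9 bases before it and 53 after it. The 319 bases of 5′ UTR, the 1035 coding bases and the 486 bases of 3′ UTR were all inside, so the reads are not tied to a part of the mRNA. Spread over this length they made 6.89 IP reads per 100 bases (95% interval 5.76 to 8.17), against 21.0 (16.4 to 26.4) for Cebpb.

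Tcf3 encodes the E proteins E12 and E47, basic helix-loop-helix factors that pair with tissue-specific factors of the same class and are held back by Id proteins. It had 2 intervals of 16 IP reads each (9.15 to 26.0) and no IgG read, a fold of at least 5.33, or 3.05 from the lower Poisson limit of the IP reads. They lie 12382 bases apart on chromosome 10, on the minus strand. The one from 79890416 to 79890543 holds 73 coding bases, a whole exon of NM_011548, and 55 bases of the intron before it. It ends exactly where the next intron begins. The one from 79877876 to 79878033 holds an exon of 127 bases of a non-coding Ensembl transcript, ENSMUST00000129027.1, with 31 bases of the intron after it. It lies inside the span of NM_011548, but the lines analysed here name only 2 non-coding transcripts there. Neither interval touched a 5′ UTR. At 16 reads the IP count is close to the lowest of the list, which was 15.

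Cited2 and Irf2bpl act beside the DNA-binding factors. Cited2 binds the co-activators CBP and p300 and competes there with hypoxia-inducible factor. Its interval held 32 IP reads (21.9 to 45.2) and no IgG read, a fold of at least 10.7, or 6.52 with the floor multiplied by 1.64. It lies on chromosome 10 from 17443040 to 17443265 on the plus strand and covers bases 7 to 232 of NM_010828. Exon 1 of this transcript is 232 bases of 5′ UTR, so all 226 bases of the interval were 5′ UTR, and its far edge fell exactly on the splice site.

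Irf2bpl, a RING-finger protein that acts as a transcriptional regulator, had the most IgG reads of the genes described. The table names it 6430527G18Rik with its Ensembl and UCSC transcripts and Irf2bpl with its RefSeq transcript, at the same interval. The IP had 97 reads here (78.7 to 118) and the IgG 20 (12.2 to 30.9), a ratio of 4.85 (95% interval 2.98 to 8.29). With the IgG reads multiplied by the factor of 1.64 it was 2.96. Without that factor, as for the ratio of 4.85, the median over all 576 listed intervals with IgG reads was 8.15 and the lowest 2.47. The interval lies on chromosome 12 from 88222418 to 88224793 on the minus strand, 2376 bases within a single exon of 4112. It begins 54 bases after the start of the coding sequence and takes in 2274 of its 2328 bases and 102 of the 867 bases of 3′ UTR. None of the 917 bases of 5′ UTR were in it. With 4.08 IP reads per 100 bases (95% interval 3.31 to 4.98) it was the thinnest of the 9, and 667 of the 673 listed intervals were denser.

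**Figure D2:**
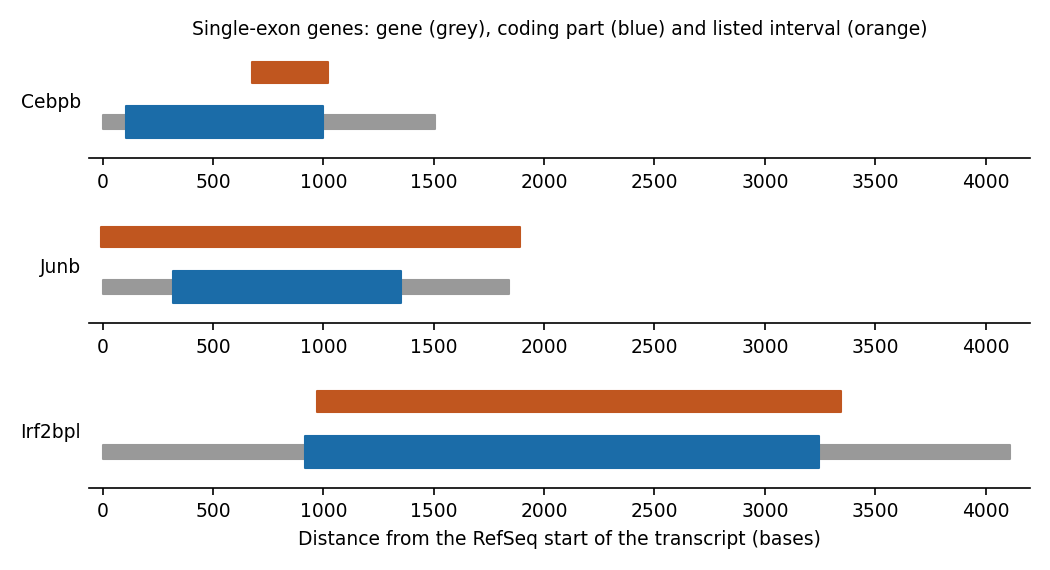
The listed intervals (orange) of the single-exon genes Cebpb, Junb and Irf2bpl against the gene (grey) and its coding part (blue), by distance from the RefSeq start in bases. The interval covers the coding 3′ end of Cebpb, the whole of Junb, and nearly all of the coding part of Irf2bpl without its 5′ UTR.

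Hdac5 and Hmgn1 act on chromatin. Hdac5 is a histone deacetylase of class IIa that represses MEF2 factors. Its interval held 15 IP reads (8.40 to 24.7) and no IgG read, a fold of at least 5, or 2.80 from the lower Poisson limit of the IP reads. Every other listed interval had 15 or more. It lies on chromosome 11 from 102067944 to 102068088 on the minus strand, and these 145 bases are exactly 1 exon, at bases 23399 to 23543 of a gene of 34426. The exon is coding in 16 of the 19 transcripts listed there, 3′ UTR in 1 and non-coding in 2. Of the 7 genes, this one had its interval farthest from the start.

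Hmgn1, a small protein that binds nucleosomes and loosens chromatin, had its reads at the very start of the gene. The interval at exon 1 held 39 IP reads (27.7 to 53.3) and no IgG read, a fold of at least 13, or 7.94 with the floor multiplied by 1.64. It lies on chromosome 16 from 96349197 to 96349338 on the minus strand. It covers all of exon 1 of NM_008251, with 121 bases of 5′ UTR and the first 15 coding bases, and 6 bases before the start. The stem-loop shown above lies inside it. The other interval, from 96349030 to 96349068, is 39 bases long and held 22 IP reads (13.8 to 33.3) and no IgG read, a fold of at least 7.33, or 4.48 with that floor. It begins on the far side of intron 1, where the next exon of NM_008251 starts, so that the intervals are separated by exactly the 128 bases of that intron. The lines analysed here do not name NM_008251 but only 1 non-coding Ensembl transcript at the shorter one. With 56.4 IP reads per 100 bases (95% interval 35.4 to 85.4) it was the densest of the 9, and the exon 1 interval had 27.5 (19.5 to 37.6). If the reads of both are added, there were 61, but whether a read across the intron was counted in both was not tested.

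By IP reads alone the order was Junb, Irf2bpl, Cebpb, Hmgn1 at exon 1, Cited2, the short Hmgn1 interval, both Tcf3 intervals and Hdac5. The Poisson intervals of neighbours in this order overlap, apart from those of Cebpb and Hmgn1. By IP reads per 100 bases Junb and Irf2bpl, first by reads, were the last, and the short Hmgn1 interval was first. Hmgn1 at exon 1 and Cebpb came next, and Cited2, Tcf3 and Hdac5 lay between. The median of the whole list was 18.6 IP reads per 100 bases, with the Hmgn1 intervals and Cebpb above it and the other 6 below.

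**Figure D3:**
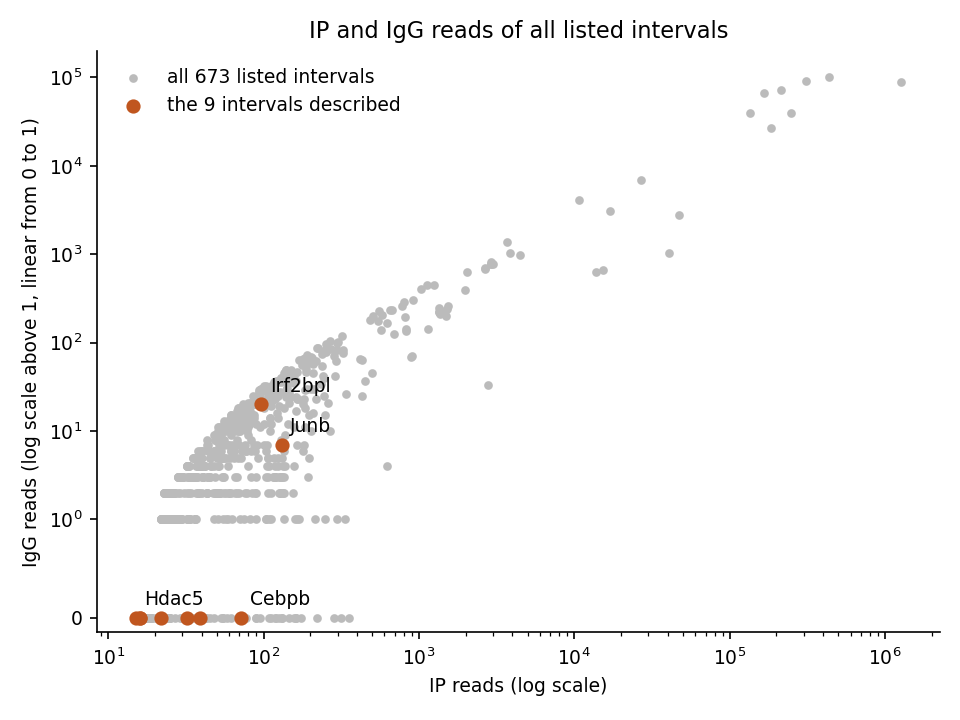
IgG reads against IP reads of all 673 listed intervals (grey) and of the 9 described (orange), both axes logarithmic apart from the stretch between 0 and 1 IgG read. Junb and Irf2bpl have IgG reads, and the other 7 lie on the line at 0 between 15 and 72 IP reads.

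In the 9 intervals described, length and edges went with gene structure. The 3 genes with a single exon (11.4% of all listed intervals are on a single-exon RefSeq transcript) had intervals of 343, 1902 and 2376 bases, whereas the 6 intervals of the 4 spliced genes were 39 to 226 bases long. In the list as a whole the median length was 451 bases for the 77 intervals on single-exon RefSeq transcripts and 281 for the others. Of these 77, only 22 were without histone names. Spliced relatives named below did not all have short intervals, which ran from 144 bases at Id3 to 2200 at Crebbp. All 6 intervals of the spliced genes had at least 1 edge exactly on an annotated splice site, against 42.1% of all listed intervals and 47.1% of the 596 not on a single-exon RefSeq transcript, and the interval of Hdac5 had both, as did 6.54% of all listed intervals. Only 3 of the 9 intervals, those of Cited2, Junb and Hmgn1 at exon 1, touched a 5′ UTR, against 55.3% of all listed intervals. With 9 intervals of 7 genes, and a choice made with the list known, these counts are a description.

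**Figure D4:**
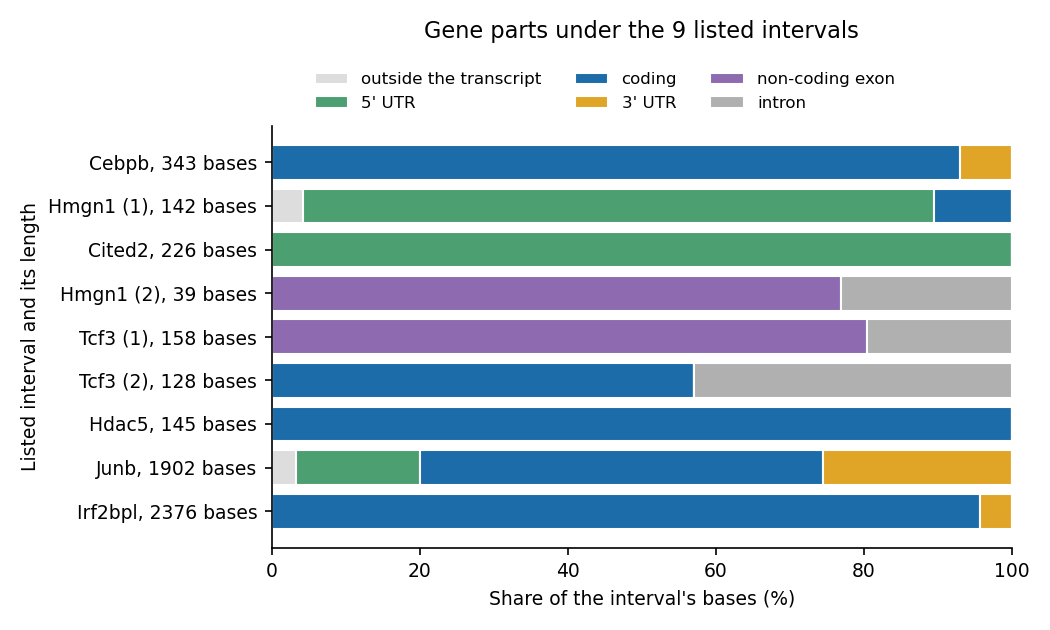
Share of the bases of each listed interval in the parts of the gene, taken from the RefSeq transcript or, where the lines name none, from an Ensembl transcript, with the interval's length beside its name. Parts are stacked by kind, not by position, and the light grey bases of Junb lie on both sides of the gene. Cited2 is wholly 5′ UTR and Hdac5 wholly coding, and Junb holds every part of its mRNA.

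Interval length also went with the IgG reads. Up to the median length of 309 bases 21.3% of listed intervals had 0 IgG reads, and above it 7.46%. The intervals of Junb and Irf2bpl, which had IgG reads, were the longest of the 9, with 0.368 and 0.842 IgG reads per 100 bases. Intervals with 0 IgG reads also had fewer IP reads, with a median of 27 against 74 over all listed intervals. The parts of length and of read number in the counts of 0 were not tested.

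Other genes of the same families were looked up in the list. Of 91 genes in 8 lists of related regulators, the 7 described included, 21 were named at a listed interval, and 14 of these were other genes with 16 intervals. Of all 21900 protein-coding RefSeq genes 2.59% were named at a listed interval, against 14 of the 84 list genes other than the 7. That share counts genes whether or not osteoblasts express them, and the lists were written with earlier results known, so nothing is read from the difference. The IgG had 0 reads in 2 of the 16, against 14.4% of all listed intervals, and the other 14 had a median ratio of 6.88, where all 576 listed intervals with IgG reads had 8.15.

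Of 10 AP-1 genes 4 were listed. Jun had 139 reads in the IP and 29 in the IgG (ratio 4.79, 95% interval 3.19 to 7.42), with the 95% interval of the ratio below that of Junb. Jund had 81 and 12 (ratio 6.75, 95% interval 3.66 to 13.6), and the 95% interval of this ratio overlaps that of Junb. Fosl2, a Fos-type partner of the Jun proteins, had 88 and 2 (ratio 44.0, 95% interval 11.8 to 369). Of 10 C/EBP and stress genes Cebpb and Cebpd were listed. Cebpd, likewise without introns, had 123 reads in the IP and 25 in the IgG over 1161 bases (ratio 4.92, 95% interval 3.18 to 7.90), whereas the interval of Cebpb had 72 and 0. The genes were chosen with these reads known, and no difference between them was tested.

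Of the 9 HMG genes looked up, 5 were listed, the most among these 8 lists. Hmgn2, the nearest relative of Hmgn1, had 42 reads in the IP and 4 in the IgG (ratio 10.5, 95% interval 3.81 to 40.3). Hmga2 had 44 and 3 (ratio 14.7, 95% interval 4.70 to 73.8) and Hmgb1 had 81 and 14 (ratio 5.79, 95% interval 3.26 to 11.05). These 3 relatives had IgG reads, whereas Hmgn1 had 0. Each of the 3 had 5′ UTR bases of at least 1 transcript in its interval, as Hmgn1 had in the one at exon 1. The lower bound of 13 for Hmgn1 at exon 1 lies within the 95% intervals of Hmgn2 and Hmga2. Hmgn1 was chosen with its reads known, and no difference between these genes was tested.

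Partners of some of the other genes were listed as well. Of the E proteins and their inhibitors, 13 genes, Tcf3 and Id3 were listed, and Id3, an inhibitor of E proteins, had 25 reads in the IP and 2 in the IgG (ratio 12.5, 95% interval 3.12 to 109). Among 7 genes around CBP and p300, Cited2 was joined by Crebbp, which encodes CBP, with 113 and 30 (ratio 3.77, 95% interval 2.50 to 5.84), and Hif1a with 40 and 6 (ratio 6.67, 95% interval 2.81 to 19.2). No other histone deacetylase than Hdac5 was listed.

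**Figure D5:**
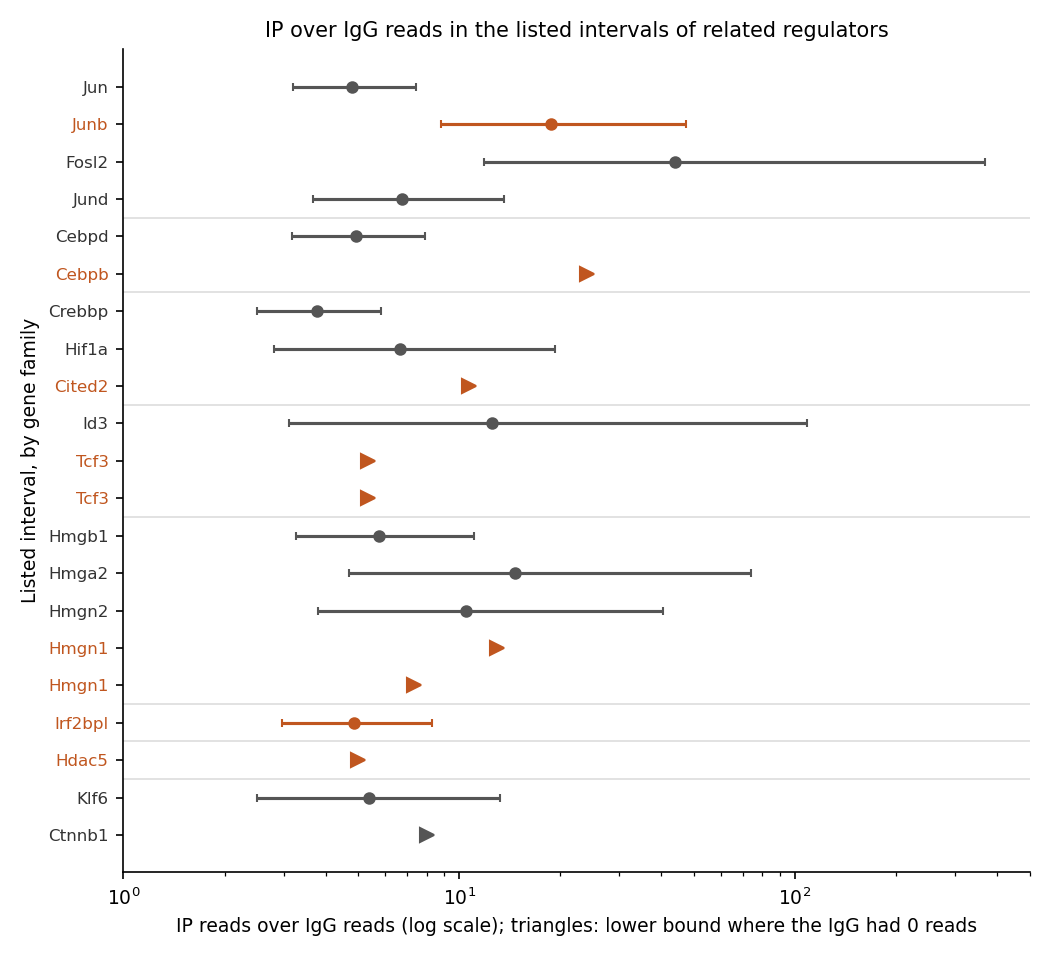
Ratio of IP to IgG reads (logarithmic axis) for the listed intervals of the related genes reported here, those of the 7 genes in orange and others in grey, with a line between families. Circles carry 95% intervals from counting error, and triangles mark the lower bound where the IgG had 0 reads, from 5 for Hdac5 to 24 for Cebpb.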

How the data were processed

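According to the submitters' notes reads were aligned to mm9 with TopHat2 2.0.9. Interval calling and any pooling of libraries were not given in the sources used here. In mm9 coordinates, the authors' deposited table holds counts of reads in IP and IgG for 673 intervals, shared bases (another unit, as deposited by the authors), and the authors' own p-values, q-values and folds, which were not used as results. The deposited p-value was used only to find how the IgG was scaled. In 560 of 560 intervals tested it equals a two-sided binomial p computed with the IgG times 1.64, rounded to whole reads (tolerance 1e-04 on the natural log).

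Members and lists were chosen with earlier results of these data known. Regions sharing 0 bases with the interval (1975 of 16285 lines) were left out when gene parts were counted. Introns among them were kept to find edges at splice sites. In single-exon genes the coding part was taken as the exon without its UTRs. Counts have exact Poisson intervals, ratios Clopper-Pearson intervals of the IP share, and a 0 in the IgG was set to a floor of 3 reads. Named are the 7 genes, other names at their intervals and listed genes of the 8 lists, with Hnrnpa0 and markers added. A few listed genes of these lists enter the counts but are not reported here by name. Start-site sequences are RefSeq's (GRCm38.p6), matched by symbol for 7 of 7 genes. Alternatives changed the floor, the IgG factor, the intervals and transcripts counted and the stem. Python 3.11.15, pandas 2.3.3 and scipy 1.17.1 were used. Interval, ratio and stem-loop code was tested on simulated data.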

Additional observations from a re-analysis of the deposited data

How the results depend on the processing

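No paired analysis was possible because the table holds 1 IP and 1 IgG number per interval and no column of a single library, so no library could be left out either. From the lower Poisson limit of the IP reads the bounds became 18.8-fold for Cebpb, 9.24-fold and 4.60-fold for the Hmgn1 intervals, 7.30-fold for Cited2, 3.05-fold for both Tcf3 intervals and 2.80-fold for Hdac5. With the floor multiplied by the IgG factor of 1.64 the lower bounds became 14.7-fold for Cebpb, 7.94-fold and 4.48-fold for the Hmgn1 intervals and 6.52-fold for Cited2, and with the IgG reads so multiplied the ratio of Irf2bpl (6430527G18Rik) became 2.96. The bounds of Tcf3 and Hdac5 became 3.26-fold and 3.06-fold, and the ratio of Junb 11.4. The lower Poisson limit and the IgG factor were each applied alone, and together they would lower the bounds further. With 3 paired bases enough, 2 of the 7 genes, Hmgn1 and Tcf3, had a stem-loop in the first 50 transcribed bases, and with 5 asked for, 0 had. The start of Tcf3 is not in a listed interval. Counts of 15 to 39 reads limit how closely the intervals of Hdac5, Tcf3, Cited2 and Hmgn1 can be ranked.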

Other observations

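Among 22 regulators of the osteoblast lineage Ctnnb1, which encodes β-catenin, and Klf6, a zinc-finger factor, were named. The interval of Ctnnb1 had 24 IP and 0 IgG reads over 160 bases that are all 5′ UTR in at least 1 transcript, and that of Klf6 had 43 and 8 (ratio 5.38, 95% interval 2.50 to 13.2).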
